A study of Xenopus laevis with 3 samples.

Results

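The miRNA families miR-23, miR-24 and miR-27 were examined in dorsal tissue of gastrula-stage *Xenopus laevis* embryos. They are represented by the sequences with a *X. laevis* (xla) or *X. tropicalis* (xtr) name that carry the number 23, 24 or 27, whatever their letter, copy or arm. This rule found 9 of the 1985 listed sequences analysed, of which 175 carried a *Xenopus* name. The study asked which miRNAs change when *lhx1*, which encodes a LIM homeodomain transcription factor, or *fry*, which encodes a partner of it, is depleted. Small RNA libraries came from uninjected embryos, from embryos given the antisense oligonucleotide Lhx1-AS against *lhx1* (400 pg) and from embryos given the morpholino Fry-MO against *fry* (20 ng), 1 library each. Both dorsal blastomeres were injected at the 4-cell stage, the embryos were kept at 14 °C, and each library came from 30 dorsal explants of stage 10.5 embryos pooled over 3 experiments. Injected embryos were picked by the red fluorescence of a tracer, and none of the libraries analysed here came from embryos given a control oligonucleotide, so that effects of depletion and of injection or picking cannot be told apart. With 1 library per condition there is no replicate error and no test of a condition, and the 95% intervals in parentheses cover counting error only. Values named in a row follow the order uninjected, Lhx1-AS, Fry-MO.

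MiRNAs are short RNAs that guide Argonaute proteins to messenger RNAs, mainly through the seed at bases 2 to 8, and lower their translation or stability. In vertebrates miR-23, miR-27 and miR-24 are cut from shared primary transcripts, and the mir-23a and mir-23b clusters are paralogues that arose by duplication. In mammals these miRNAs are known from endothelium, blood, muscle and fat, where miR-23a and miR-23b lower glutaminase, miR-27 restrains fat cell differentiation and miR-24 acts on regulators of the cell cycle. Here miR-23b, miR-27b and miR-24a were taken as one cluster and miR-23a, miR-27a and miR-27c as the other. Mammals carry a copy of miR-24 in each cluster, and a mature miR-24a read does not show from which precursor it came.

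The sequences that carry the comparisons are given as deposited, 5′ to 3′ with T for U and with the seed in capitals, since how far the paralogues differ decides which reads can be told apart.
miR-23a (*X. laevis*): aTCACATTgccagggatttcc
miR-23a (*X. tropicalis*, 3 bases longer): aTCACATTgccagggatttccaat
miR-23b: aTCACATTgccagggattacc
miR-27a: tTCACAGTggctaagttccgc
miR-27b: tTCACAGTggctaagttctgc
miR-27c: tTCACAGTggctaagttcc
miR-24a-3p: tGGCTCAGttcagcaggaac
Counted from the 5′ end, miR-23b and miR-23a differed only by A19T, and miR-27b and miR-27a only by T19C, with 20 of 21 bases identical in each pair. The paralogues are therefore distinguished by a single base outside the seed. MiR-27c was listed 19 bases long and is identical to the start of miR-27a, so that a short miR-27a read and a miR-27c read are the same sequence. The seeds of miR-23 and miR-27 were identical at 6 of 7 bases, and no *Xenopus*-named sequence outside the families had either of these seeds. The remaining members were 2 products of the opposite arm, miR-24a-5p and mir-24b-p5.

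Each of the 5 most read members had its lowest level in the uninjected library, a higher one with Lhx1-AS and its highest with Fry-MO. For miR-24a-3p, however, the order of the injected libraries turns when they are scaled to listed reads. For miR-23b that order is within counting error under a further scaling given below. Levels are given as normalized counts, the raw reads divided by a library size parameter that the authors set. Together the 9 members had 277.0, 2332.4 and 6207.6 normalized counts, which are 255, 1804 and 5444 raw reads. Of the reads with a *Xenopus* name they made up 0.454% (0.40 to 0.513) without injection, 6.42% (6.14 to 6.72) after Lhx1-AS and 8.48% (8.27 to 8.70) after Fry-MO. The families were thus a minor part of these reads in uninjected tissue and a much larger one in both injected libraries. The *Xenopus*-named total holds many reads of miR-427, an early embryo miRNA, whose precursor gave 82.1%, 61.8% and 23.9% of it. Without the products of mir-427 the member shares were 2.54%, 16.8% and 11.1%, which puts the Lhx1-AS library above the Fry-MO library.

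MiR-27b was the most read member in every library. Its level was 205.7 normalized counts without injection, 1709.6 after Lhx1-AS and 4820.3 after Fry-MO, and it stood at place 14, 4 and 5 among the 175 *Xenopus*-named sequences. It held 74.2%, 73.3% and 77.7% of all member reads. MiR-27a, its paralogue from the other cluster, had 13.9, 63.8 and 268.3 normalized counts. MiR-27c had 0.833, 1.33 and 6.33 raw reads, too few for a ratio to be read.

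The miR-23 paralogues were closer to each other in level than those of miR-27. MiR-23a, in its *X. laevis* form, had 25.0, 118.9 and 391.1 normalized counts, and miR-23b had 13.0, 115.1 and 290.8. The longer *X. tropicalis* form of miR-23a had 0, 4 and 10 raw reads. MiR-24a-3p, the 3′ arm product of miR-24a, had 18.5, 315.5 and 417.3 normalized counts. Its place among the *Xenopus*-named sequences was 55, 12 and 24, so that it ranked highest after Lhx1-AS. MiR-24a-5p had 0, 1 and 1 raw reads and mir-24b-p5 0, 1 and 0.

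**Figure D1:**
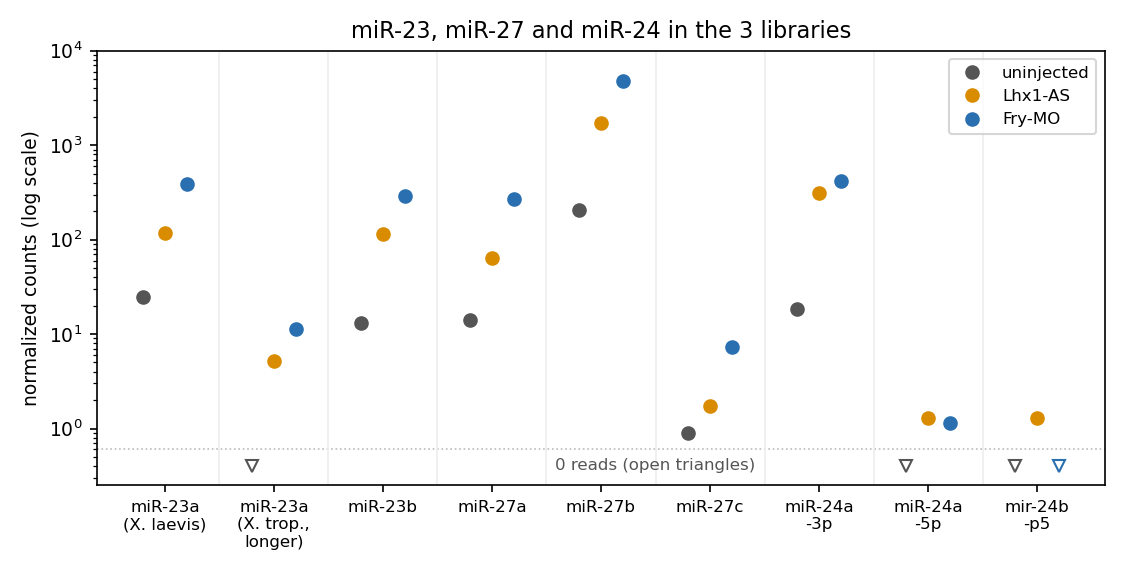
Normalized counts of the 9 members (log axis) in the uninjected, Lhx1-AS and Fry-MO libraries, 1 point per library, with open triangles for 0 reads. The Fry-MO point of miR-27b, at 4820.3, is the highest, and in the 5 most read members the points climb from uninjected to Lhx1-AS to Fry-MO. For miR-24a-3p the last step turns when scaled to listed reads. For miR-23b it is within counting error when scaled to listed reads without mir-427.

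In the Lhx1-AS library the members were higher than in the uninjected library, with the widest separation for miR-24a-3p. A sequence was compared where at least 1 of the pair of libraries held 10 raw reads, and a ratio of 2 or more was called higher and one of 0.5 or less lower. All 5 members with enough reads (miR-24a-3p, both miR-23 paralogues, miR-27b and miR-27a) were called higher, against 26 of 79 *Xenopus*-named sequences, or 32.9%. The other 4 members had too few reads. Counts, shares and medians over all *Xenopus*-named sequences include the members, here and below. MiR-24a-3p had a ratio of 17.1 (10.5 to 29.8), miR-23b one of 8.83 (4.81 to 17.7) and miR-27b one of 8.31 (7.13 to 9.73). Those of miR-23a and miR-27a, the members of the other cluster, were 4.76 (2.99 to 7.88) and 4.58 (2.44 to 9.23). All of these intervals lay above 2. Among the 79 sequences compared these 5 took places 2, 4, 5, 9 and 10 by ratio, with miR-24a-3p highest among them. Their median log2 ratio, with a pseudocount of 1, was 3.05, and that of the 79 sequences 0.33. The median of the 79 was 0.19 with TMM scaling and 1.29 when scaled to the listed reads. TMM aims to equalize the bulk of all listed sequences, whatever their species name, and not that of the *Xenopus*-named ones. The 5 members were called higher under each of the 5 other scalings tried. Scaled to listed reads, 50 of the 79 sequences (63.3%) were called higher too, and without mir-427 in that total 47 (59.5%). The smallest member ratio among these scalings was 4.13. The share of higher calls among all calls was 83.9%, and it was 70.6% with TMM, 72.7% with median-of-ratios scaling and 100% when scaled to the listed reads.

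In the Fry-MO library the members were higher than in the uninjected library, and the factors of the clusters were not separated beyond counting error. All 6 members with enough reads were called higher, in a comparison where 64 of 93 *Xenopus*-named sequences, or 68.8%, were. The sixth, the longer form of miR-23a, passed the read minimum only through the Fry-MO library, so that it could hardly have been called otherwise. Without it 5 of 5 were called, with a median log2 ratio of 4.38. MiR-27b had a ratio of 23.4 (20.3 to 27.3), miR-24a-3p of 22.6 (13.9 to 39.2), miR-23b of 22.3 (12.5 to 43.7), miR-27a of 19.2 (11.0 to 36.9) and miR-23a of 15.7 (10.3 to 25.0). These 5 intervals overlap one another. The longer form of miR-23a, with no read in the uninjected library, had a ratio of 3.50 with 0 set to the floor of 3 reads. Its counting interval starts at 2.35 and has no upper end. In the order just given these 5 stood at places 4, 5, 6, 9 and 17 of 93 by ratio. The median log2 ratio of the 6 members was 4.27 against 2.02 over the 93 sequences, and the latter lay between 1.73 and 2.50 under the other scalings. Under each of these scalings the 6 members were called higher, as were 66.7% to 75.3% of the 93 sequences. Since more than 6 in 10 sequences were called higher in this library, a higher call does not set the members apart from the background. The ratios of the 5 most read members were among the larger ones, but sequences outside the families had ratios as large or larger. Within the range of these members lay miR-143 at 18.8 (14.0 to 25.9) and miR-191 at 16.2 (14.0 to 18.8). The longer form of miR-23a stood at place 53 of 93.

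A direct comparison of the injected libraries, free of the uninjected library that both ratios share, gave smaller differences. Of 6 members compared, 5 had a ratio of at least 2 between the Fry-MO and the Lhx1-AS library, where 53 of 96 sequences, or 55.2%, did. The median log2 ratio of the members was 1.41 and that of the 96 sequences, members included, 1.35, so that these medians were close. MiR-27a was 4.21-fold higher (3.08 to 5.84), miR-23a 3.29-fold (2.61 to 4.19), miR-27b 2.82-fold (2.65 to 3.00) and miR-23b 2.53-fold (1.98 to 3.25). The longer form of miR-23a had a ratio of 2.20 (0.636 to 9.63) and again passed the read minimum only through the Fry-MO library. Without it 4 of 5 members had a ratio of at least 2, with a median log2 ratio of 1.49. MiR-24a-3p had the smallest ratio, 1.32 (1.12 to 1.56). It was 1.18 (0.998 to 1.39) with TMM and 1.13 (0.957 to 1.33) with median-of-ratios scaling, intervals that hold 1. It turned to 0.778 (0.660 to 0.918) when the libraries were scaled to their listed reads and to 0.626 (0.531 to 0.739) without mir-427 in that total. Under these scalings 1 and 0 of the 6 members reached a ratio of 2, where 41 (42.7%) and 33 (34.4%) of the 96 sequences did. The share of higher calls among the higher and lower calls alone went from 85.5% to 66.1% and 55.0% under these scalings. Whether miR-24a-3p was higher or lower in the Fry-MO than in the Lhx1-AS library is therefore set by the scaling. For miR-23b the ratio was 1.19 (0.935 to 1.54) when scaled to listed reads without mir-427. Its order in the injected libraries was thus not decided under that scaling.

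**Figure D2:**
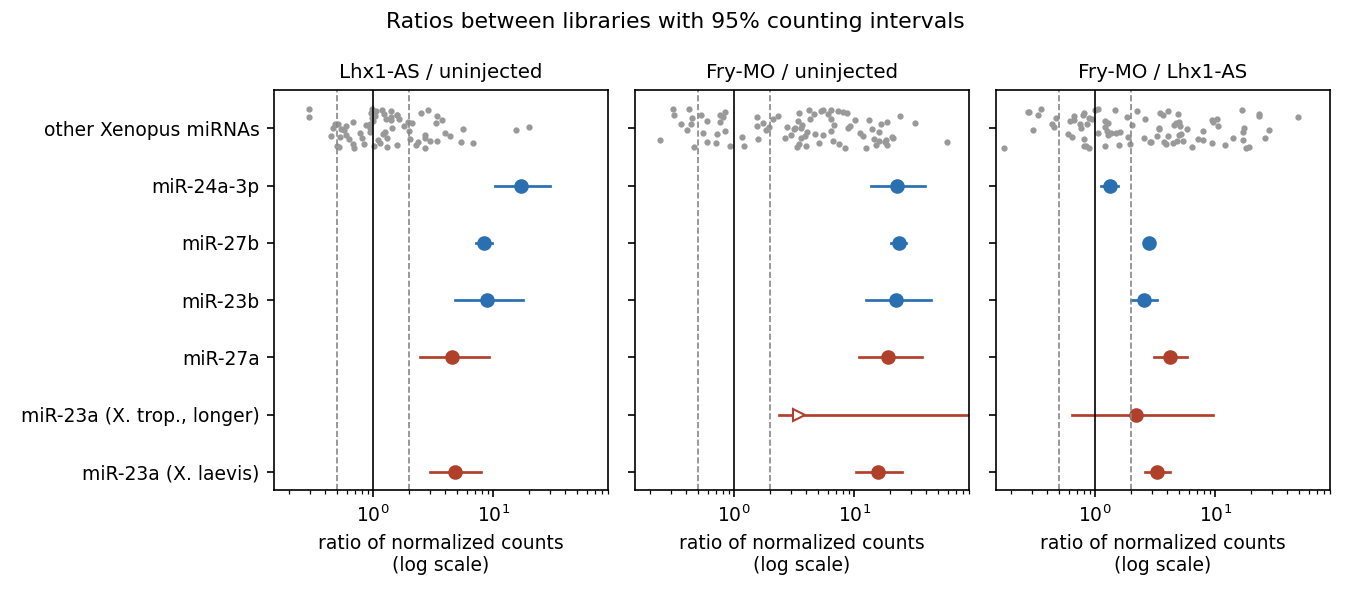
Ratios of normalized counts (log axis) for the pairs of libraries, with members as large points (blue for the 23b/27b/24a cluster, red for the 23a/27a/27c cluster), 95% counting intervals as lines, other *Xenopus*-named sequences in grey and dashed lines at ratios of 0.5 and 2. Against the uninjected library the 5 most read members lie to the right of most grey points, while in the direct comparison of the injected libraries they lie within them. The open triangle marks the ratio of 3.50 for the longer form of miR-23a, with 0 set to 3 reads.

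Summed by family, all 3 were higher in both injected libraries. The miR-23 sequences, with 35, 185 and 608 raw reads, had a ratio of 6.29 (4.37 to 9.31) after Lhx1-AS and 18.2 (13.0 to 26.4) after Fry-MO. The miR-24 sequences, with 17, 246 and 367 reads, had ratios of 17.2 (10.5 to 30.0) and 22.7 (14.0 to 39.3). The miR-27 sequences, with 203, 1373 and 4469 reads, had ratios of 8.05 (6.94 to 9.38) and 23.1 (20.1 to 26.7). The miR-24 ratio with Lhx1-AS lay above that of the other families, and with Fry-MO the intervals of the families overlapped. All members together were 8.42-fold (7.38 to 9.64) and 22.4-fold (19.8 to 25.5) higher, and 2.66-fold (2.52 to 2.81) higher with Fry-MO than with Lhx1-AS. Scaled to listed reads, with and without mir-427 among them, the Lhx1-AS value was 16.9 and 16.1 and that of Fry-MO to Lhx1-AS 1.56 and 1.26, outside the counting intervals. In tissue pieces, more cells that contain a miRNA and more of it per cell cannot be told apart.

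The balance of the paralogous clusters within a library does not depend on how libraries are scaled. Of the reads of both clusters, 23b/27b/24a held 85.6% (80.7 to 89.7) without injection, 91.9% (90.5 to 93.1) after Lhx1-AS and 89.1% (88.2 to 89.9) after Fry-MO. It was thus the larger cluster in each library, and its share was highest with Lhx1-AS. The odds ratio of the Lhx1-AS to the uninjected library was 1.91 (1.26 to 2.84) and that of the Fry-MO to the Lhx1-AS library 0.723 (0.595 to 0.876). Between the Fry-MO and the uninjected library the odds ratio was 1.38 (0.939 to 1.99), an interval that holds 1. In ratios to the uninjected library, the summed 23b/27b/24a cluster was 9.03-fold (7.84 to 10.4) higher after Lhx1-AS and the 23a/27a/27c cluster 4.76-fold (3.30 to 7.04). After Fry-MO they were 23.3-fold (20.4 to 26.8) and 17.0-fold (12.2 to 24.5) higher. Without miR-24a these odds ratios were 1.77 (1.16 to 2.63), 0.785 (0.644 to 0.951) and 1.39 (0.939 to 2.0). Most of these reads are miR-27b. In the miR-23 pair alone, longer miR-23b forms left out, miR-23b held 34.3%, 48.1% and 41.9%. With whole-read members alone, which leaves out miR-27 but keeps miR-24a, the cluster held 55.8%, 77.7% and 63.8%.

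Within each family the shares of the paralogues were measured with fewer reads. MiR-23b made up 34.3% (19.1 to 52.2), 48.1% (40.7 to 55.6) and 41.9% (38.0 to 46.0) of the miR-23 reads. This count holds the longer form of miR-23a but leaves out the longer forms of miR-23b described below. With the longer forms of both, the share was 47.7%, 55.3% and 50.1%. In the first count the intervals of the odds ratios between libraries all held 1, the widest being 0.791 to 4.15. MiR-27b made up 93.3%, 96.3% and 94.6% of the miR-27 reads. This count leaves out the longer forms of miR-27a and miR-27b described below, among them 52.1 reads of miR-27a forms with Fry-MO. The miR-27b share was lower in the Fry-MO than in the Lhx1-AS library, with an odds ratio of 0.674 (0.485 to 0.921). The odds ratio of the Lhx1-AS to the uninjected library, 1.92 (0.962 to 3.6), held 1. Within the 23b/27b/24a cluster, miR-27b had 15.8, 14.9 and 16.6 reads for each read of miR-23b. The odds ratios between libraries of this pair were 0.943 (0.461 to 1.77), 1.05 (0.527 to 1.92) and 1.12 (0.860 to 1.44), so that no shift between them was detectable at this depth. Within the other cluster, miR-27a and miR-27c together had 0.594, 0.528 and 0.685 reads for each read of miR-23a, again with intervals that held 1.

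MiR-24a-3p, counted here with miR-23b and miR-27b whatever its precursor, differed from them in proportion between libraries. It made up 7.79% (4.60 to 12.2), 14.7% (13.1 to 16.5) and 7.55% (6.82 to 8.33) of their summed reads. The odds ratio of the Lhx1-AS to the uninjected library was 2.04 (1.22 to 3.64) and that of the Fry-MO to the Lhx1-AS library 0.473 (0.396 to 0.564). The Fry-MO and uninjected libraries differed by less than counting error, at 0.965 (0.580 to 1.71). Against miR-23b alone, where all reads are whole, the odds ratio was 0.524 (0.387 to 0.706) for Fry-MO to Lhx1-AS, while that of Lhx1-AS to uninjected, 1.93 (0.807 to 4.49), rested on 29 uninjected reads and held 1. The proportion of miR-24a-3p to miR-23b and miR-27b thus differed between the injected libraries by more than counting error.

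**Figure D3:**
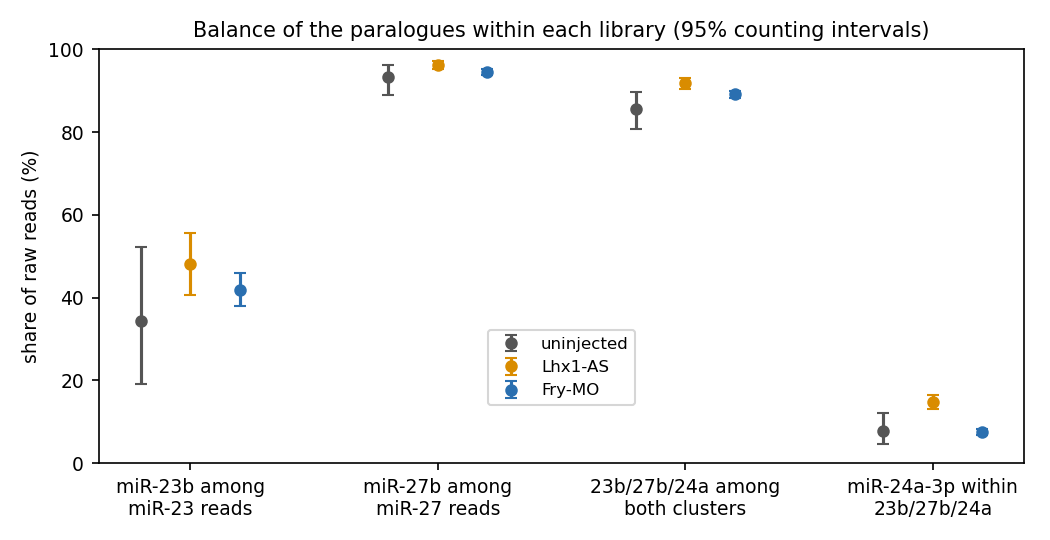
Share of raw reads (percent) that one paralogue or cluster held within each library, with 95% counting intervals as bars. MiR-27b holds over 93% of miR-27 in each library, and miR-23b between 34.3% and 48.1% of miR-23. Both counts leave out the longer forms named after other species. The share of miR-24a-3p in its cluster is 14.7% with Lhx1-AS against 7.79% and 7.55%.

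Between the *Xenopus*-named arms of miR-24a, reads fell almost only on the 3′ arm. MiR-24a-3p had 17, 244 and 366 reads where miR-24a-5p had 0, 1 and 1, a 3′ arm share of 100% (80.5 to 100), 99.6% (97.7 to 100) and 99.7% (98.5 to 100). The miR-24a-5p sequence carries the substitution A12G from its *X. tropicalis* reference and mir-24b-p5 is the only product of a mir-24b precursor among the members. A 5′ arm sequence named after the Chinese hamster was read more often than both. It had 4, 12 and 112 raw reads, with ratios of 3.57 (1.08 to 15.2), 29.4 (11.2 to 109.8) and, Fry-MO to Lhx1-AS, 8.23 (4.53 to 16.4). Set against it, miR-24a-3p made up 81.0% (58.1 to 94.6), 95.3% (92.0 to 97.6) and 76.6% (72.5 to 80.3) of the reads of the pair. The odds ratio of the Fry-MO to the Lhx1-AS library was 0.161 (0.0790 to 0.301). Counted with the hamster-named arm, the 3′ arm share of miR-24 was thus lower in the Fry-MO than in the Lhx1-AS library. The species from which the hamster-named reads came was not tested. No *Xenopus*-named 5′ arm product of miR-23 or miR-27 was among the sequences analysed, and the other-species 5′ arm products of these families had at most 3 reads in a library.

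Among the members, divided reads were found in the miR-27 sequences only. Raw read numbers of miR-27b, miR-27a and miR-27c were not whole, because a read that matched several listed sequences had been divided among them. In all, 41 of the 175 *Xenopus*-named sequences (23.4%) had such reads. The fractional parts of miR-27a and miR-27c were the same, 0.833, 0.333 and 0.333, and that of miR-27b was 0.333 in each. The sum of the 3 sequences was whole in each library, to a tolerance of 1e-06, so that the family total does not depend on the division among them. If reads matching all 3 were divided equally, at most 2.5, 4 and 19 reads can have been so divided, since miR-27c holds no more. These are small beside the 189.3, 1322.3 and 4227.3 reads of miR-27b. Of such reads miR-27a would hold no more than miR-27c has, 0.833, 1.33 and 6.33, beside its own 12.8, 49.3 and 235.3. The fraction of 0.833 cannot come from division in 3 alone, so some uninjected reads were divided in another way.

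Forms with extra bases at the 3′ end were a larger part of miR-23b than of miR-23a. The longer forms of miR-23b were listed under lamprey names, which extend the *Xenopus* sequence by 3 or 4 bases. They held 9 of 21 reads without injection, or 42.9% (21.8 to 66.0), 30 of 119 after Lhx1-AS, or 25.2% (17.7 to 34.0), and 100 of 355 after Fry-MO, or 28.2% (23.5 to 33.2). Longer forms of miR-23a held 0 of 23 reads, which allows a share of up to 14.8%, then 4 of 96, or 4.17% (1.15 to 10.3), and 11 of 354, or 3.11% (1.56 to 5.49). For miR-23b the odds of a longer form were 7.69-fold (2.56 to 31.3) those of miR-23a in the Lhx1-AS library and 12.2-fold (6.36 to 25.7) in the Fry-MO library. The paralogues thus differed in listed length as well as at base 19. The shares of miR-23b among miR-23 reads given above leave out these longer miR-23b forms. With the longer forms of both paralogues, an alternative chosen after seeing the data, miR-23b and miR-23a had 21 and 23, 119 and 96, and 355 and 354 reads. The share of miR-23b was then 47.7% (32.5 to 63.3), 55.3% (48.4 to 62.1) and 50.1% (46.3 to 53.8), so that which paralogue had more reads was not decided beyond counting error in any library.

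Longer forms of miR-27a held a larger share with Fry-MO than with Lhx1-AS. They had 1, 2.08 and 52.1 reads, or 7.23% (0.183 to 34.2), 4.05% (0.527 to 13.6) and 18.1% (13.8 to 23.1) of miR-27a reads. The odds ratio between the injected libraries was 5.40 (1.34 to 47.3), and that of Fry-MO to uninjected, 2.87 (0.413 to 124.6), held 1. Nearly all reads of these longer forms came from a zebrafish-named form that is 1 base longer. For miR-27b longer forms held at most 1.05% of the reads, and for miR-24a-3p at most 3.43%. The sources used here do not say how the authors' pipeline assigned reads of other lengths to a listed sequence, so these shares describe the listing.

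**Figure D4:**
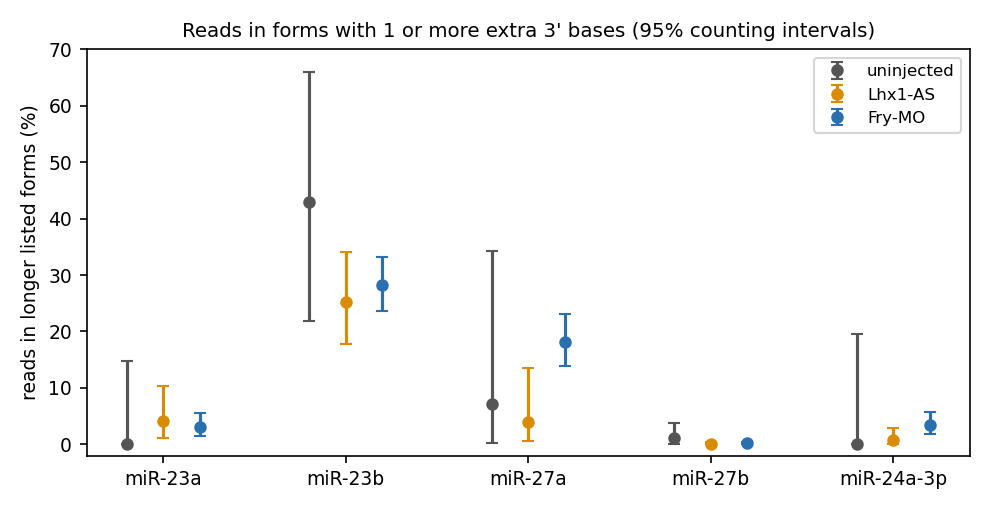
Share of reads (percent) in listed forms with 1 or more extra bases at the 3′ end, per library, with 95% counting intervals as bars. The shares of miR-23b, 25.2% to 42.9%, lie above those of miR-23a in the injected libraries, and miR-27a reaches 18.1% in the Fry-MO library.

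Besides the members, 31 sequences of miR-23, miR-24 or miR-27 carried the name of another species, and 10 of them extend a member. They had 24.3, 53.1 and 304.4 raw reads in all, with ratios of 2.60 (1.58 to 4.40) for Lhx1-AS and 13.2 (8.70 to 20.8) for Fry-MO. Their reads were few beside those of the members, and their sums were also higher in the injected libraries.

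MiR-128, a miRNA known from the brain of other vertebrates, has the seed of miR-27 shifted by 1 base, and its levels are set beside those of miR-27.
miR-128: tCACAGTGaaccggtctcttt
Its levels were 33.7, 21.3 and 27.4 normalized counts, with ratios of 0.634 (0.326 to 1.19) and 0.813 (0.456 to 1.43). Both intervals held 1 and lay below those of the 5 most read members.

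The *Xenopus*-named sequences with the most similar pair of ratios were sought among the 69 other sequences with at least 50 reads over the 3 libraries. Likeness was the Euclidean distance between the log2 ratios to the uninjected library, pseudocount 1, and those of the summed 23b/27b/24a cluster, which were 3.17 (Lhx1-AS) and 4.54 (Fry-MO). Of the members, miR-27b lay at a distance of 0.12, miR-23b at 0.20, miR-24a-3p at 0.86 and, from the other cluster, miR-27a at 1.11 and miR-23a at 1.15. Nearest outside the families was miR-145 at 1.10, with 4, 23 and 58 raw reads. MiR-191 followed at 1.51 with 195, 553 and 3003 reads and let-7c at 1.97 with 36.3, 164.3 and 233.3. MiR-143, which shares a transcript with miR-145 in mammals, lay at 2.23 with 46, 76 and 824 reads, and miR-30e at 2.28 with 40, 68 and 556. MiR-145 thus lay about as far from the cluster as miR-27a and miR-23a, which are not part of its sum. MiR-27b supplied 86.7%, 79.8% and 87.2% of the reads of that sum, so its nearness, and in part that of miR-23b and miR-24a-3p, follows from how the distance was built. These distances rest on 2 ratios that share the uninjected library and describe likeness over these libraries only.

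Other groups of miRNAs differed between the libraries as well, and their part in the member ratios was not tested. Sequences named after placental mammals took 1.97%, 12.6% and 13.9% of the listed reads, and were 3.19-fold (3.05 to 3.33) and 5.97-fold (5.73 to 6.23) higher in normalized counts. According to the study the human mimics it used for miR-23b and miR-27b match the mature *X. laevis* sequences, so reads of these members do not show their species. Whether reads of the other members do was not tested. Over all *Xenopus*-named sequences compared, 26 of 79 (32.9%) were called higher after Lhx1-AS and 64 of 93 (68.8%) after Fry-MO. The counts of the lists that follow are to be read beside these shares. Counts and ratios of these lists use the authors' size parameters only. The factor between libraries in a ratio of Lhx1-AS to uninjected is 1.19 with these parameters and 2.39 scaled to listed reads. Under the latter, 50 of 79 sequences (63.3%) were called higher, so the list values after Lhx1-AS depend on the scaling. MiRNAs known from blood and endothelium (8 sequences) had a summed ratio of 1.13 (0.973 to 1.31) after Lhx1-AS and 13.8 (12.4 to 15.4) after Fry-MO. Of those with enough reads 0 of 5 and 5 of 5 were called higher. Single ratios in this list ran from 0.696 to 1.57 after Lhx1-AS and from 4.04 to 21 after Fry-MO. MiRNAs known from fibroblasts and smooth muscle (9 sequences) had ratios of 1.16 (1.10 to 1.23) and 3.84 (3.68 to 4.01), with 2 of 6 and 6 of 6 called higher. The Lhx1-AS sum of this list joins unlike ratios. Its most read sequence, miR-22-3p, with 1900 and 950 raw reads, had a ratio of 0.595 (0.550 to 0.644), which was not called lower. MiR-199a-5p, with 554.5 and 1322.5, had a ratio of 2.84 (2.57 to 3.14). Single ratios of this list after Lhx1-AS ran from 0.595 to 6.84. The neural list (8 sequences) had summed ratios of 0.999 (0.636 to 1.56) and 2.0 (1.39 to 2.92), with 1 of 2 and 3 of 4 called higher. Each of these called sequences passed the read minimum only through the injected library, so that a lower call was not possible. The same holds for miR-145 in the fibroblast and smooth muscle list. The skeletal and heart muscle list had 0, 1 and 9 raw reads. The early embryo list (6 sequences), nearly all reads of mir-427, had summed ratios of 0.450 (0.442 to 0.458) and 0.349 (0.343 to 0.356). Of 5 compared, 3 were called lower in each injected library, all products of mir-427, where 5 of 79 and 9 of 93 of all sequences were. Scaled to listed reads, with or without mir-427 in that total, 0 of 79 sequences were called lower after Lhx1-AS. The lower calls of mir-427 products after Lhx1-AS thus depend on the scaling. MiR-428, named after its values were seen, was higher after Lhx1-AS at 3.34 (2.19 to 5.21). After Fry-MO its ratio was 0.914 (0.525 to 1.58), an interval that holds 1.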

How the data were processed

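The authors sequenced small RNA libraries on an Illumina GAIIx (reads of 40 bases, SCS 2.8, RTA 1.8.70) and processed them with ACGT101-miR 4.2. The 3′ adapter was cut, inserts of 15 to 32 bases were kept and reads were mapped to miRBase and genomes of *X. laevis* and other chordates (release and builds not given in the sources used here), per the authors' methods. The deposited raw reads are estimated counts, as a read fitting several listed sequences was divided among them. The deposited normalized signal is these reads divided by a size parameter of 0.921 (uninjected), 0.773 (Lhx1-AS) or 0.877 (Fry-MO), with 0 written as 0.001. The libraries held 5802603, 4805539 and 4493357 raw reads, of which 3157393, 2451390 and 2125966 were mappable and 133894, 56026 and 108041 fell on the listed sequences analysed. A deposited table of read numbers per step gave the mappable reads.

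Ratios of normalized counts were formed with Python 3.11.15, pandas 2.3.3 and scipy 1.17.1. Clopper-Pearson intervals (95%) were computed from raw reads for ratios and shares, and exact conditional intervals for odds ratios. PCR reads without molecular identifiers are not independent molecules, and intervals on divided reads are approximate. Reads of 0 were set to a floor of 3 reads in ratios. All members with at least 10 reads over the libraries are described in full. Outside the families, the 5 most similar sequences by the distance given, the most read sequence (miR-427) and lists of tissue-related miRNAs are named, and miR-128 was added for its seed after its values were seen. Alternatives were TMM factors (edgeR 4.0.16), median-of-ratios factors (DESeq2 1.42.0), scaling to mappable or listed reads, and other filters, pseudocounts, folds and member sets. The members and lists were chosen with earlier results of these data known. No genome was used, so precursor positions are not given.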

Additional observations from a re-analysis of the deposited data

How the results depend on the processing

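With 1 library per condition no paired analysis was possible because no condition has a second library, and only counting error is known. All compared members were called higher against the uninjected library under each scaling tried, and with whole-read members only 3 of 3 were higher with Lhx1-AS. Alternatives chosen after seeing the data were the longer miR-23a left out and longer forms of miR-23b counted, with the values given above. At a fold of 4, 5 of 6 were called with Fry-MO, all but the longer form of miR-23a. The median fold over the 93 sequences compared was 4.06, so that this threshold lies near the middle of the background. The summed Lhx1-AS ratio of 8.42 became 16.9 scaled to listed reads, 16.1 to listed reads without mir-427 and 9.87 over whole-read members. The summed Fry-MO ratio of 22.4 became 18.0 with TMM, 18.0 with median-of-ratios factors, 26.5 scaled to listed and 31.7 to mappable reads, 19.7 over whole-read members and 19.4 without miR-27b. The ratio of Fry-MO to Lhx1-AS, 2.66, became 2.37 with TMM, 2.27 with median-of-ratios, 1.56 scaled to listed reads, 3.48 to mappable reads, 1.26 to listed reads without mir-427, 2.0 over whole-read members and 2.23 without miR-27b. The member median log2 ratio with Lhx1-AS, 3.05, became 4.02 scaled to listed reads, 3.96 without mir-427 in them and 2.21 without a read filter. The share of the 23b/27b/24a cluster over whole-read members was 55.8% (uninjected), 77.7% (Lhx1-AS) and 63.8% (Fry-MO), since this leaves out miR-27. MiR-24a-3p, Fry-MO to Lhx1-AS, turned from 1.32 to 0.778 scaled to listed reads and 0.626 without mir-427 in them. With a minimum of 50 reads the arm share had no value for the uninjected library, where miR-24a had 17 reads. The uninjected library, with 12 to 23 reads for 4 of the 5 most read members, limits the precision.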
